A study of Mus musculus with 5 samples.

Results

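The strongest sites of both factors were 1450 genomic sites at which Gfi1 and Lsd1 each gave a peak in the upper 10% of the peak score in both tumors studied. They were selected by score alone: a Gfi1 replicate 1 peak was kept when it was in the upper 10% of its own list and shared at least 1 bp with an upper 10% peak of each of the 3 other lists. The list of Gfi1 replicate 1 holds 36836 peaks, of which 3684 were in the upper 10%, so the sites were 39.4% of these. The 4 lists together hold 125494 peaks. Since the score chose the sites, the scores given here describe them and no test was made on them.

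The tumors were mouse MG medulloblastomas, which arise from cerebellar neural stem cells of wild-type C57BL/6 mice in the first postnatal week after retroviral transfer of Myc and Gfi1, followed by transplantation into the cerebellum of NSG mice, an immunodeficient host. Tumor cells were taken from adult tumor-bearing mice, and Gfi1 is therefore expressed from a virus in both MG tumors. Chromatin of 2 tumors, numbered 39 (replicate 1) and 41 (replicate 2), was immunoprecipitated with rabbit polyclonal antibodies to Gfi1 and to Lsd1, which gave 4 libraries, 2 for each factor. An input control from pooled MGB tumors, made with Myc and Gfi1b, is in the series and was not analysed here.

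Gfi1 is a zinc finger repressor whose SNAG domain binds Lsd1 (Kdm1a), a histone demethylase that acts in complexes with CoREST proteins and histone deacetylases. Many promoters of widely expressed genes lie in CpG islands, stretches of DNA that keep their CpG dinucleotides, and some of them serve a pair of genes transcribed in opposite directions. The tRNA genes are transcribed by RNA polymerase III and carry promoter elements inside the transcribed sequence.

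To show what lies under the highest-ranked sites, 5 promoters and 4 tRNA genes are printed from RefSeq for GRCm38.p6, each 5′ to 3′ on its gene's strand. Promoters run from 250 bases before to 50 after the start. Pla2g6 (chr15:79328322-79328621, minus strand) was the highest-ranked site with 1 gene. Hist1h2ad (chr13:23574131-23574430, plus strand, RefSeq symbol H2ac7) belongs to the highest-ranked site with a divergent pair of coding genes. Fbxo5 (chr10:5805416-5805715, minus strand) was the only gene with a shared site among 14 genes of neuronal differentiation and related function that the study names. Jun (chr4:95052173-95052472, minus strand) and Hnrnpl (chr7:28810640-28810939, plus strand) were added after their values were seen, as sites at 3100 in all 4 lists. Capitals mark the CCAAT box, written CCAAT or on the other strand ATTGG, and the TATA letters TATAAA. The Gfi1 core AATCNNNGC and the ETS letters CCGGAAG were searched on both strands as well and did not match in these 5 windows.
Pla2g6: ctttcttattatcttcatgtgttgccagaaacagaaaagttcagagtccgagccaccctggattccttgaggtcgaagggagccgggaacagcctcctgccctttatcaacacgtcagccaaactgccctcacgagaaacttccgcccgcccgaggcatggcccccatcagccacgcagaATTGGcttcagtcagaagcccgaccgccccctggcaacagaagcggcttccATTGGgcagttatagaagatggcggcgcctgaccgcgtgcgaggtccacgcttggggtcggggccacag
Hist1h2ad: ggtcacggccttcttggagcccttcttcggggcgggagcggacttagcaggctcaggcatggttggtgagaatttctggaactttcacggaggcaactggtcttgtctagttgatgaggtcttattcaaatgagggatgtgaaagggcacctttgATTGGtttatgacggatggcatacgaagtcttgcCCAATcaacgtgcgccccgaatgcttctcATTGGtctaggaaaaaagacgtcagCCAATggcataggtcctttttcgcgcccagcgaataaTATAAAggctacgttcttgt
Fbxo5: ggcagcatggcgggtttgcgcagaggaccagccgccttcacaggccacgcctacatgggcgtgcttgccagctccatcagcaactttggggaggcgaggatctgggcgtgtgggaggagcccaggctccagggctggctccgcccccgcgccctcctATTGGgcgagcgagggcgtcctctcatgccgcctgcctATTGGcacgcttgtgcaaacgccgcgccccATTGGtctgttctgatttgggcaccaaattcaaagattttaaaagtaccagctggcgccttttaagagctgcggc
Jun: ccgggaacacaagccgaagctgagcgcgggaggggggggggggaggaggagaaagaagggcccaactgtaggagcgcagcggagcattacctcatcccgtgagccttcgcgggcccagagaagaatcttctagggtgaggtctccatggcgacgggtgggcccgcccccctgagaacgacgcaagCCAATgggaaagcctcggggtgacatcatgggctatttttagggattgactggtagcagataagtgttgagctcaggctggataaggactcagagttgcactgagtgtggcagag
Hnrnpl: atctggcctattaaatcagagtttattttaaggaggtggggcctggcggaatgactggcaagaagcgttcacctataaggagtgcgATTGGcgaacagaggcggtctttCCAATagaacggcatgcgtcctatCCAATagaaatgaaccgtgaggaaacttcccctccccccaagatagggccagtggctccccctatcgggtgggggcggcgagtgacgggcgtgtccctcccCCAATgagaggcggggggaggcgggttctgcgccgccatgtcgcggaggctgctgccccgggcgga
Each of the 5 promoters held the CCAAT letters, with 2 matches at Pla2g6, 4 at Hist1h2ad, 3 at Fbxo5, 1 at Jun and 4 at Hnrnpl. These 5 were picked and do not stand for the set. Of 1372 shared promoters searched, 42.0% held CCAAT on either strand, against 39% of all coding promoters, so most shared promoters lacked it. The 4 tRNA genes lie in the highest-ranked site without an annotated promoter, between position 69040385 and position 69041897 of chromosome 11. Capitals mark the letters GTTCNA of the B box, an internal promoter element of tRNA genes.
n-TPcgg3: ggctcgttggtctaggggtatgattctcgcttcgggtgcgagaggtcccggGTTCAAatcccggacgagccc
n-TDgtc9: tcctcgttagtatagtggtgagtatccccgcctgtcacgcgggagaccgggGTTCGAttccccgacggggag
n-TGtcc6: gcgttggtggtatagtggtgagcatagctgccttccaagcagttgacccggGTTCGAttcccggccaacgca
n-TWcca7: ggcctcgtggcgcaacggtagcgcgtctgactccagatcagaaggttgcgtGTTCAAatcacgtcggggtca

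The score that defined the sites was 1732 or more in Gfi1 replicate 1, 758 in Gfi1 replicate 2, 1119 in Lsd1 replicate 1 and 1532 in Lsd1 replicate 2. The lists do not share a scale at the top: 910 peaks of Gfi1 replicate 1 reached 3100, a value shared by most of them, against 13, 138 and 488 peaks in the other lists in the same order. Scores were therefore turned into percentiles within each list before they were averaged. Just inside the limit, the peak at Wipi1 scored 0.515 above the Gfi1 replicate 1 cutoff, that at Eny2 and Nudcd1 3.30 above and that near Rps6ka1 4.78 above. Just outside, the peak at Ano8 and Gtpbp3 fell short of the Gfi1 replicate 2 cutoff with a score of 757 (rounded), and Acbd5 missed the same cutoff with the same rounded score. Tsc22d4 missed in Lsd1 replicate 2, with 1531 against 1532.

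Of the 3684 upper peaks of Gfi1 replicate 1, 70.5% met an upper 10% peak of Lsd1 replicate 2, 56.7% one of Lsd1 replicate 1 and 53.7% one of Gfi1 replicate 2. Gfi1 replicate 2 was the list in which most candidates were lost: 492 peaks failed there alone, against 228 in Lsd1 replicate 1 and 77 in Lsd1 replicate 2. These were failures of rank and not of presence, since 2220 of the 2234 upper peaks left out (99.4%) had a peak of some score in every other list. Of the 910 peaks at 3100 or more, 72.6% were kept, and below that value, in 4 bins of near-equal size, the share went from 10.4% in the lowest bin to 47.0% in the highest.

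Within the set, 11 sites reached 3100 in all 4 lists, 77 in 3 lists, 276 in 2, 386 in 1 and 700 in none. The 10 highest mean percentiles over the lists ran from 99.4% to 99.6%. Many peaks share the value 3100, and the highest score was 3233.1 in Gfi1 replicate 1 and in both Lsd1 lists. As the score is not defined, the order of peaks at or above 3100 need not be an order of strength. Pla2g6, which encodes a calcium-independent phospholipase, came first, with scores of 3209.9 and 2095 for Gfi1 in replicates 1 and 2 and of 3002 and 3100 for Lsd1. A site with 3 histone genes, Hist1h2ad, Hist1h2bf and Hist1h3d, was second, with 3143 and 1820.3 for Gfi1 and 3100 in both Lsd1 lists. Actrt3 and Mynn, Zfp219, Sde2 and Cdkn1b followed. Cdkn1b encodes the cyclin-dependent kinase inhibitor p27, and its peak scored 3100 and 1989.5 for Gfi1 and 2873 and 3215 for Lsd1. At each of these 6 sites the lowest score was that of Gfi1 replicate 2, whose whole list runs lower.

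**Figure D1:**
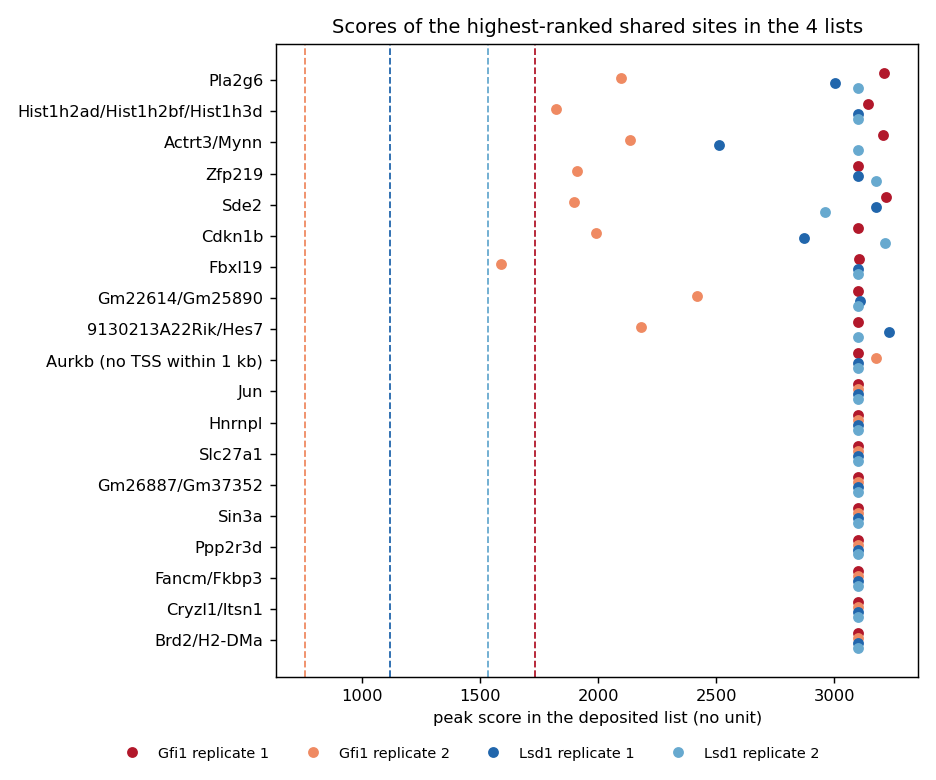
Peak scores (horizontal axis, no unit) of 19 of the 20 sites with the highest mean percentile, one row per site in order of rank, with 1 point per list and a dashed line at each list's upper 10% cutoff. All points lie to the right of their list's cutoff, and from Jun down all 4 points of a row are at 3100.

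The next ranks were taken by Fbxl19, by a pair of small nuclear RNA genes on chromosome 3 (Gm22614 and Gm25890), by Hes7 with 9130213A22Rik, and by the tRNA site on chromosome 11, whose closest annotated start was that of Aurkb at 3395 bp. Gm22614 and Gm25890 scored 3100 and 2420.4 for Gfi1 and 3109.9 and 3100 for Lsd1. The remaining named sites of the first 20 scored 3100 in every list. They were Jun, Hnrnpl, Slc27a1, Gm26887 with Gm37352, Sin3a, Ppp2r3d, Fancm with Fkbp3, Cryzl1 with Itsn1, and Brd2 with H2-DMa. Sin3a encodes the scaffold of a histone deacetylase complex and Brd2 a reader of acetylated histones. Histone, small nuclear RNA and tRNA genes have near-identical copies, so that reads may be split among them or placed at the wrong copy, and how such reads were treated is not given in the sources used here.

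Nearly all sites lay at promoters. A transcription start site (TSS) of GENCODE M21 was within 1000 bp of 1409 sites (97.2%), inside the peak itself in 1406, and a TSS of a protein-coding gene was within reach in 94.8%. Of the 2234 other upper peaks of Gfi1 replicate 1, 97.3% were at a TSS, and of the 33152 peaks below the upper 10%, 45.5%. With the other lists as the reference, the shared sites had the higher share by 5.55, 13.2 and 3.42 percentage points for Gfi1 replicate 2, Lsd1 replicate 1 and Lsd1 replicate 2. When the rule was applied within each tumor, to the 2 lists of tumor 39 or of tumor 41, the shares at a TSS were 96.8% and 95.6%, a mean of 96.2% ± 0.853 (SD, n = 2). Most sites, 984, held the start of 1 coding gene, 346 held those of 2 and 39 held those of 3 or more.

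Peaks of the 4 lists covered the same stretch around the start. At 684 sites with a single coding gene, the median peak reached from 1467 bp before the TSS to 1616.5 bp after it in Gfi1 replicate 1, from 1493 to 1770.0 in Gfi1 replicate 2, from 1705 to 1982 in Lsd1 replicate 1 and from 1633 to 1908 in Lsd1 replicate 2. Peaks ran farther into the gene than upstream of it in every list, by a median of 121 bp to 216.5 bp per site, and at between 58.3% and 62.3% of sites. Of 1315 other upper Gfi1 replicate 1 peaks of the same kind, 66.6% ran farther into the gene.

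**Figure D2:**
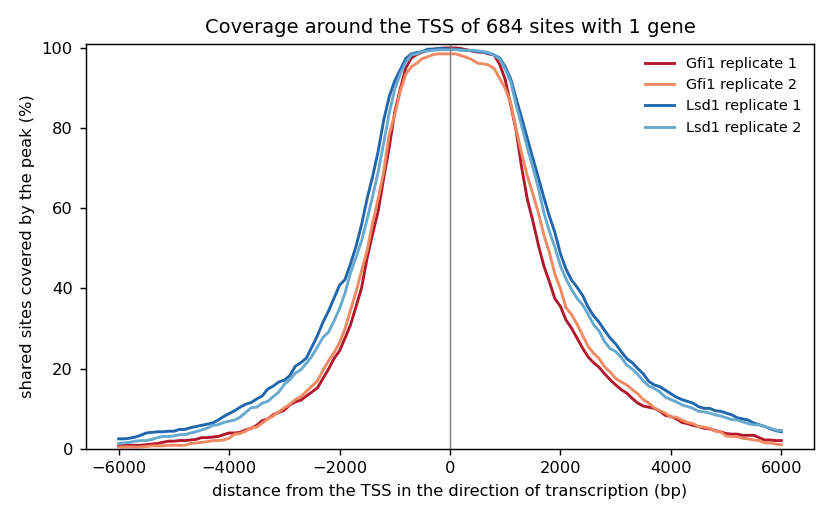
Share of 684 shared sites with 1 gene, in percent, at which the peak of each list covered a given distance from the TSS in bp, with transcription to the right; 1 line per list. All lines are near 100% at the TSS, and the Lsd1 lines lie outside the Gfi1 lines on both sides.

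The stretch that the best peaks of all 4 lists had in common was a median of 2973 bp long, which was 69.6% of the stretch that any of them covered. It held a TSS at 1388 sites (95.7%). At 2 sites, Kdm6b among them, the best peaks did not all share 1 stretch. The shared stretch had a median of 4.73 CpG per 100 bp against 0.900 in the 1000 bp on either side of all peaks, and was the richer of the 2 at 1438 of 1447 sites.

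The sites were wide. In Gfi1 replicate 1 their median width was 3322 bp, with quartiles of 2577 and 4793 bp and a range from 1346 to 18521 bp, against 2587 bp for the other upper peaks and 1333 bp for the peaks below. The widest overlapping upper peaks had medians of 3584 bp in Gfi1 replicate 2, 4100.0 bp in Lsd1 replicate 1 and 3874 bp in Lsd1 replicate 2. Over the tumors the Gfi1 medians averaged 3453 ± 185 bp and the Lsd1 medians 3987 ± 160.2 bp (SD, n = 2), and the values of the factors did not overlap. Within tumor 39 the Lsd1 median was 778 bp above that of Gfi1, and within tumor 41 it was 290.0 bp above. In tumor 39 the Gfi1 width is that of the site itself and the Lsd1 width that of the widest overlapping peak. The order was not particular to the shared sites. Over all upper 10% peaks the Gfi1 and Lsd1 medians were 2827.5 and 4139 bp in tumor 39. In tumor 41 they were 3298 and 3598 bp. Width and score come from the same peak calls, and in Lsd1 replicate 1 the other upper peaks were as wide, with a median of 4191 bp.

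**Figure D3:**
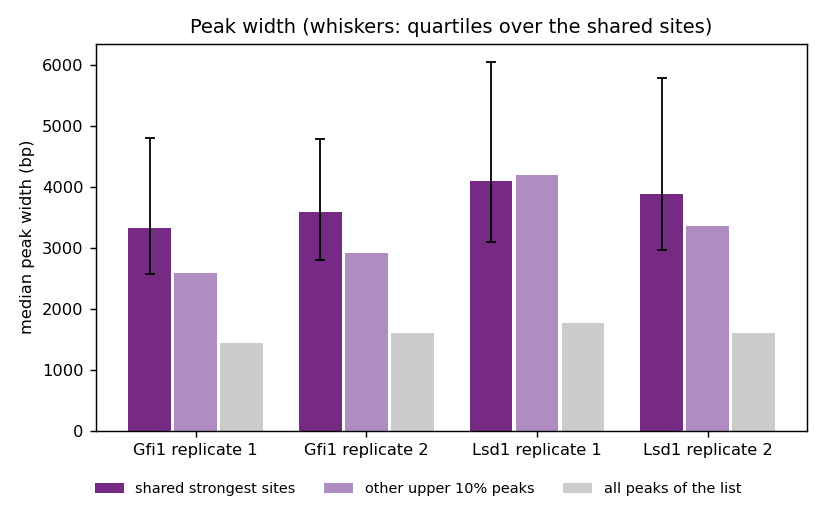
Median peak width in bp in each of the 4 lists for the shared sites, for the other upper 10% peaks and for all peaks of the list; whiskers are quartiles over the shared sites. The shared sites were wider than all peaks in 4 lists and wider than the other upper peaks in 3, Lsd1 replicate 1 being the exception.

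The widest site, 18521 bp at Nfic, a nuclear factor I gene, lay at the 96.7, 99.9, 99.5 and 97.0 percentiles of Gfi1 replicates 1 and 2 and Lsd1 replicates 1 and 2. Kdm6b, a histone H3 lysine demethylase gene, had 18232 bp, Cactin with Pip5k1c 17566 bp, Bahcc1 16704 bp and Diras1 with Slc39a3 16482 bp. Of these 5, Bahcc1 alone ranked among the highest 25 by score, at rank 22, while Diras1 with Slc39a3 had rank 1410. The narrowest sites, looked up after the widest, were Ddx59 with 1346 bp, Kifap3 with 1404 bp and Anapc5 with 1607 bp. Across the 1450 sites the rank correlation of width between 2 lists was 0.789 to 0.870, and that of score 0.277 to 0.670. These are descriptions over sites of the same libraries, with neighbouring lists sharing a tumor or an antibody.

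Promoters were classed by CpG content at 1 TSS per site, the annotated start closest to the middle of the peak, coding genes first. This may be a start inside the gene, whereas all protein-coding gene starts were taken at the 5′ end of the gene. A high-CpG promoter had a 500 bp window near the TSS with an observed over expected CpG ratio of at least 0.75 and a GC content of at least 55%, a low-CpG promoter had no window at 0.48 or more, and the rest were intermediate. Of the 1450 sites, 1181 (81.4%) were at a high-CpG promoter, 169 at an intermediate and 59 at a low-CpG one, while 45.0% of all 21938 protein-coding gene starts were high-CpG. Among the other upper Gfi1 replicate 1 peaks the high-CpG share was larger, 87.9%. That order did not hold with another list as the reference, where the shared sites had the higher share by 10.4, 20.04 and 3.06 percentage points for Gfi1 replicate 2, Lsd1 replicate 1 and Lsd1 replicate 2. Within the tumors the share was 81.1% and 78.2%, a mean of 79.6% ± 2.07 (SD, n = 2).

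**Figure D4:**
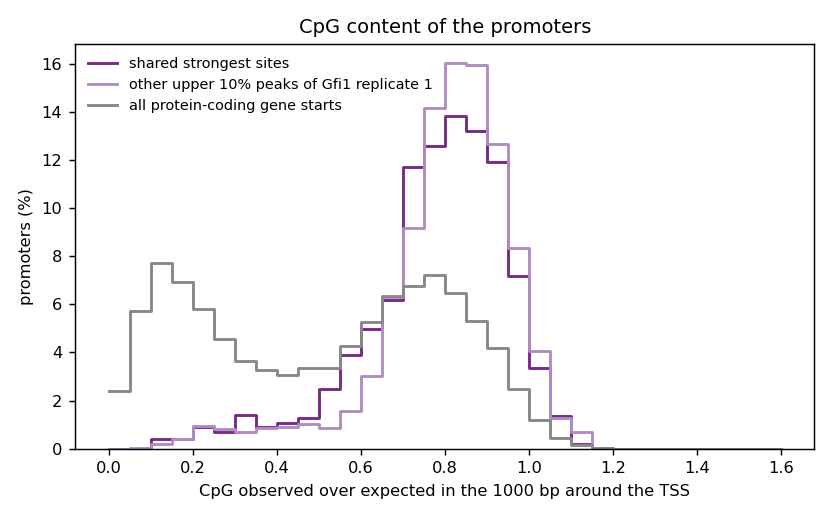
Distribution of promoters, in percent per bin of 0.05, by the observed over expected CpG ratio in the 1000 bp around the TSS, for the 1409 shared sites at a TSS, the other upper 10% Gfi1 replicate 1 peaks and all protein-coding gene starts. The shared sites have 1 main peak near 0.8 (median 0.805), whereas all gene starts (median 0.553) show a second peak at low ratios.

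The 59 low-CpG sites had ranks from 1 to 1445, with a median of 749. They included Pla2g6, the site of rank 1, Srf at rank 80 and Kdm6b at rank 380. At Pla2g6 the annotated TSS closest to the middle of the peak is an internal one with a ratio of 0.130. Rps18 was also classed at an internal start, position 33952541, although the gene starts at 33956001 inside the peak. How many of the low-CpG sites were classed at an internal start was not counted. Genes with a low-CpG start seldom had a site: 121 of 8053 (1.503%) did, against 221 of 4016 intermediate (5.50%) and 1462 of 9869 high-CpG genes (14.8%). This order was not particular to the shared sites. An upper 10% peak of Gfi1 replicate 1 was at 3.38% of low-CpG, 10.7% of intermediate and 36.6% of high-CpG genes. Of the genes with such a peak, 44.5%, 51.5% and 40.5% had a shared site, in the same order.

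Divergent promoters were defined as a pair of TSSs of different genes on opposite strands, pointing away from each other and no more than 1000 bp apart. Both starts had to lie in the peak or within 1000 bp of it. They were found at 494 sites (34.1%), and at 277 (19.1%) both genes were protein-coding, with a median of 130 bp between the starts. Among the other upper Gfi1 replicate 1 peaks the shares were 25.7% and 13.2%, and among all protein-coding gene starts 16.1% and 10.4%. The gene-start share was searched within 1000 bp of the gene start and counts genes, not sites. Wider peaks gave more room for a pair, and the median width was 3322 bp for the shared sites and 2587 bp for the other upper peaks. Whether peak width bears on the shares was not tested. The shared sites had the higher share with each of the 4 lists as the reference, by 8.38, 6.03, 14.6 and 9.81 percentage points for Gfi1 replicates 1 and 2 and Lsd1 replicates 1 and 2. These comparisons rest on nearly the same shared sites and differ in the peaks they are set beside. Within the tumors the divergent share was 31.5% and 32.6%, a mean of 32.0% ± 0.823 (SD, n = 2). Sites with 2 divergent coding genes were narrower, with a median of 3078 bp in Gfi1 replicate 1 against 3337 bp for sites with a coding gene and no divergent pair, and they were narrower in the 3 other lists too.

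The sequence of 1372 shared promoters, those whose closest start was of a coding gene, was searched from 250 bases before to 50 after the TSS. For peaks the TSS was the one closest to the middle of the peak, and for all coding and high-CpG promoters the 5′ end of the gene. Comparisons with these backgrounds are therefore not fully like for like. CCAAT on either strand was present in 42.0%, against 31.7% of the other upper Gfi1 replicate 1 peaks, 37.7% of all high-CpG coding promoters and 39% of all coding promoters. The gap to the other upper peaks was smaller with the other lists as the reference, at 2.95, 3.75 and 4.80 percentage points for Gfi1 replicate 2, Lsd1 replicate 1 and Lsd1 replicate 2. At least 2 CCAAT boxes were present in 20.6%, against 10.9%, 14.6% and 12.7% in the same order, and in 19.7% after the histone promoters were left out. With the other lists as the reference, 18.9% to 20.3% of shared promoters and 13.4% to 15.7% of the others held 2 or more. The ETS letters CCGGAAG were in 13.1% of shared promoters, 18.8% of the others, 18.7% of high-CpG coding promoters and 10.8% of all coding promoters. Beside the other upper peaks, the shared sites were the lower in all 4 references, by 2.90 to 13.3 percentage points.

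The Gfi1 core AATCNNNGC was found in 14.3% of shared promoters, 10.2% of the other upper ones, 12.5% of high-CpG and 11.7% of all coding promoters, and with Gfi1 replicate 2 as the reference the shared sites were 0.358 percentage points lower than the others. The E-box letters CANCTG were in 38.0% of shared promoters, 37.9% of the other upper ones and 40.7% of high-CpG ones, and the Myc E-box CACGTG in 10.1%, 9.72% and 11.1%. The NRF1 letters GCATGCGC were in 5.76%, against 6.10% of the other upper promoters and 6.22% of the high-CpG ones. The Sp1 GC box GGGCGG was in 71.4% of shared and 71.4% of all high-CpG coding promoters. Such matches describe the letters of a window and not a bound site.

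By the closest TSS, 1804 of 21938 protein-coding genes had a shared site, a background of 8.22%, and 19.6% had an upper 10% peak of Gfi1 replicate 1. Of 23 classes of coding genes, 19 were above 8.22% and 11 were also above the 14.8% of genes with a high-CpG start. Classes differ in how many of their genes have a high-CpG start, and no set test was made. Because the classes were chosen with results of these data known, the counts describe them only. Each class is also given below by its share with an upper 10% peak in each list, where the background over all coding genes was 16.5% ± 4.40 for Gfi1 and 16.5% ± 1.53 for Lsd1 (SD, n = 2).

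**Figure D5:**
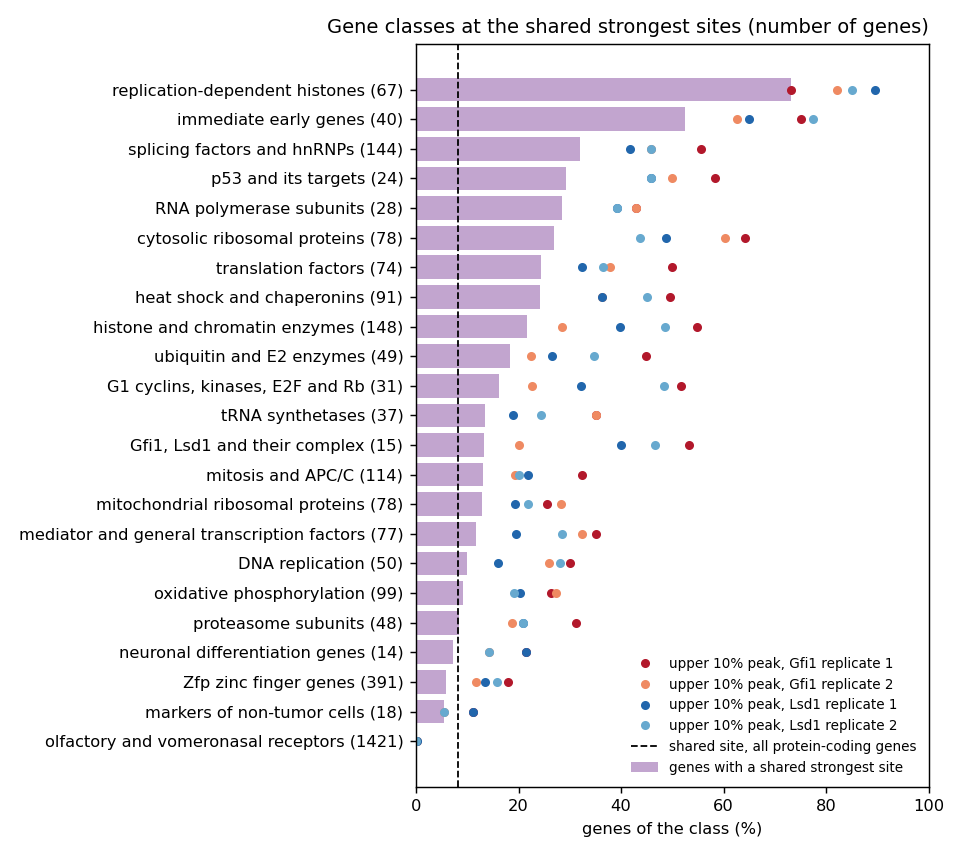
Percent of the genes of 23 classes with a shared site (bars) and with an upper 10% peak in each of the 4 lists (points), with the number of genes in parentheses; the dashed line is the 8.22% of all protein-coding genes with a shared site. Replication-dependent histone genes lead with 73.1% and immediate early genes follow with 52.5%, and olfactory and vomeronasal receptor genes have 0.0704%.

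Replication-dependent histone genes, which supply histones in S phase and lie in clusters, had the highest share. A shared site was closest to 49 of 67 (73.1%), which was every histone gene with an upper peak in Gfi1 replicate 1. The share with an upper 10% peak was 77.6% ± 6.33 for Gfi1 and 87.3% ± 3.17 for Lsd1 (SD, n = 2). The 49 genes were served by 24 sites, of which 18 had 2 or more histone genes and none more than 3. All 10 genes of Hist2 had a site, as did 38 of 54 of Hist1, 1 of 2 of Hist3 and 0 of 1 of Hist4. By protein, 15 of 18 H2A genes, 13 of 18 H2B, 11 of 12 H3, 6 of 13 H4 and 4 of 6 H1 genes had one. The site of Hist2h2aa1 and Hist2h3c1 had rank 31 and scored 3100 and 2552 for Gfi1 and 3100 in both Lsd1 lists. CCAAT letters were in 20 of the 24 promoters of these sites (83.3%) and in 83.6% of the promoters of all 67 histone genes.

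Immediate early genes, which are induced by growth signals within minutes, came second with 21 of 40 (52.5%), at a median width of 5259 bp. Their share with an upper 10% peak was 68.8% ± 8.84 for Gfi1 and 71.3% ± 8.84 for Lsd1 (SD, n = 2). Jun, a subunit of the AP-1 factor, scored 3100 in all 4 lists. Its relative Jund scored 3100 and 2894 for Gfi1 and 3100 in both Lsd1 lists, with a peak of 9707 bp. Zfp36l1, which encodes an RNA-binding protein, reached 3100 and 2371.5 with Gfi1, and Ier2 reached 3100 and 2356. Both genes were at 3100 in the 2 Lsd1 lists. Fos and Egr1, named after their values were seen, had ranks 480 and 173. For Nr4a1 the site lay 6848 bp from the closest start and not at the promoter.

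Genes for RNA processing came next. Of 144 splicing factor and hnRNP genes, 46 (31.9%) had a shared site. Hnrnpl scored 3100 in all lists. Rbm15 scored 3100 and 2303 for Gfi1 and 3055 and 3100 for Lsd1, Hnrnpa2b1 3100 and 1903 for Gfi1 and 2901 and 3100 for Lsd1, and Hnrnpul2 3100 and 1934 for Gfi1 and 2656 and 3100 for Lsd1. Across these 4 genes, Gfi1 replicate 1 and Lsd1 replicate 2 were at 3100 and Gfi1 replicate 2 was at or below the others. The share with an upper 10% peak was 50.7% ± 6.88 for Gfi1 and 43.8% ± 2.95 for Lsd1 (SD, n = 2).

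Of 78 cytosolic ribosomal protein genes, 50 (64.1%) had an upper 10% peak in Gfi1 replicate 1 and 21 (26.9%) had a shared site. The ratio of these counts, 42%, was close to the 41.9% of all coding genes. Their share with an upper 10% peak was 62.2% ± 2.72 for Gfi1 and 46.2% ± 3.63 for Lsd1 (SD, n = 2). The 2 Gfi1 values were both above the 2 Lsd1 values, an order that was not particular to this class. Mitochondrial ribosomal protein, translation factor, tRNA synthetase and oxidative phosphorylation genes had it too. So did RNA polymerase subunit, mediator and general transcription factor, and p53 target genes. Replication-dependent histone genes had the opposite order. Rpl36 scored 3100 and 1888 for Gfi1 and 3100 in both Lsd1 lists, and Rpl7 3100 and 1782 for Gfi1 and 2662 and 3100 for Lsd1. The mitochondrial ribosomal protein genes had a share of 12.8%, 10 of 78.

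Of the other parts of the expression machinery, 8 of 28 RNA polymerase subunit genes (28.6%) had a shared site, with Polr1d, Polr2h, Polr2a and Polr2b the highest in rank. Translation factors had 18 of 74 (24.3%), led by Eef1a1 and Eif5a, and heat shock and chaperonin genes 22 of 91 (24.2%), led by Dnajb12 and Hspb6. Histone and chromatin enzyme genes had 32 of 148 (21.6%), led by Brd2, Kmt2e, Kat6b and Setd5. Kmt2e scored 3100 and 2091 for Gfi1 and 2749.7 and 3100 for Lsd1, and Kat6b, a histone acetyltransferase gene, scored 3100 and 1762 for Gfi1 and 2960.0 and 3100 for Lsd1. Ubiquitin and E2 enzyme genes had 9 of 49 (18.4%), with Ube2b at rank 21. Mediator and general transcription factor genes had 9 of 77 (11.7%), led by Gtf2i and Med25, and tRNA synthetase genes 5 of 37 (13.5%), led by Yars and Ears2. Of all coding genes with an upper Gfi1 replicate 1 peak, 41.9% had a shared site. This share was 39.5% for chromatin enzyme, 40.9% for ubiquitin and E2, 33.3% for mediator and 38.5% for tRNA synthetase genes. It was 66.7% for RNA polymerase, 48.65% for translation factor and 48.9% for heat shock genes. Snhg15 and Snhg17 were the 2 of 17 snoRNA host genes with a site.

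Among the cell cycle classes, mitosis and DNA replication genes were nearer to the background than G1 regulators. Mitosis and anaphase-promoting complex genes had 15 of 114 (13.2%), Aurkb among them by distance alone, and DNA replication genes 5 of 50 (10.0%), led by Mcm7 and Pold2. Mcm7, a subunit of the replicative helicase, scored 3100 and 2067 for Gfi1 and 2658 and 3100 for Lsd1. G1 regulators had 5 of 31 (16.1%), led by Cdkn1b, Cdk4, E2f3 and Cdkn2aip. Cdk4, the kinase partner of D-type cyclins, scored 3194 and 1792.5 for Gfi1 and 2868 and 2455 for Lsd1. Genes of p53 and its targets had 7 of 24 (29.2%). Bbc3, which encodes the cell death protein Puma, scored 3100 and 1776 for Gfi1 and 3100 in both Lsd1 lists. Trp53 itself scored 2862 and 1491 for Gfi1 and 2575 and 2859 for Lsd1. Cdkn1a, which encodes the kinase inhibitor p21, was lower, with 2179 and 984.5 for Gfi1 and 1819 and 1906 for Lsd1. Proteasome genes had 4 of 48 (8.33%) and oxidative phosphorylation genes 9 of 99 (9.09%), both close to 8.22%.

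Classes below the background were the Zfp zinc finger genes with 23 of 391 (5.88%) and the olfactory and vomeronasal receptors with 1 of 1421. The neuronal differentiation genes that the study names had 1 of 14 (7.14%). The marker genes of blood, vessel, glia and neurons had 1 of 18 (5.56%). Both shares are below 8.22% as numbers, but with so few genes they cannot be told apart from the background. The single marker was Cd68, a macrophage gene whose site of 5711 bp also held the starts of Mpdu1 and Mir1934. The single receptor gene, Olfr750, was closest to its site at 5179 bp and the site held 3 tRNA genes.

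A list of 15 genes held Gfi1, Lsd1, genes of Lsd1 complexes, and related genes such as Myc, Insm1, Snai1 and Snai2. Of these, Hdac2 and Hmg20b had a shared site, a share of 13.3% beside 8.22% of all coding genes. In the study, HDAC1 and HDAC2 were not detected by Western blot after immunoprecipitation of Gfi1 from MG tumors. That result is about binding between proteins, whereas the site is a peak at the Hdac2 gene, so neither bears on the other. Hdac2, a histone deacetylase gene, scored 3159 and 949 for Gfi1 and 1212 and 2034 for Lsd1, with widths of 2136 bp, 2134 bp, 2617 bp and 2224 bp. Hmg20b, which encodes a CoREST complex subunit, scored 3100 and 941 for Gfi1 and 1731 and 2855 for Lsd1. The CoREST genes Rcor1, Rcor2 and Rcor3 were in the upper 10% of 3 lists and fell short in Gfi1 replicate 2, at the 77.5, 71.1 and 75.3 percentiles. Gfi1 and Kdm1a themselves had no peak in the upper 10% of any list, and their best peaks were at the 82.99 and 85.71 percentiles, both in Gfi1 replicate 1.

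Fbxo5, which encodes an inhibitor of the anaphase-promoting complex, was 1 of 14 genes of neuronal differentiation and related function that the study names and the only one with a shared site, a share of 7.14% beside 8.22% of all coding genes. Its peak at rank 539 (chr10:5804246-5806715) scored 3100 and 1062 for Gfi1 and 1555 and 3100 for Lsd1, with widths of 2470 bp, 2301 bp, 2609 bp and 2514 bp. The 2 libraries at 3100 were of different factors and tumors. Lrig3 reached the upper 10% in 3 lists and lay at the 88.8 percentile of Gfi1 replicate 2. Bmpr1a reached it in Gfi1 replicate 1 alone, and Nfia lay between the 84.6 and 89.9 percentiles in the 4 lists. Ptf1a and Dcc had no peak within 1000 bp of a TSS in any list.

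Several of the highest-ranked sites held transfer RNA genes. These were looked for after the position of the highest distal sites had been seen. Of 408 tRNA genes that RefSeq places on the assembled chromosomes, 67 (16.4%) lay inside a shared site, although the sites covered 5.88 Mb, or 0.216% of these chromosomes. In the single lists 21.8% and 27.2% of tRNA genes lay in an upper 10% peak of Gfi1 and 31.6% and 25.5% in one of Lsd1. For comparison, 1.39% of snRNA, 2.46% of snoRNA and 2.61% of miRNA genes lay inside a shared site. By the closest TSS, 29 of 190 genes annotated as bidirectional promoter lncRNA (15.3%) had a shared site. The tRNA genes were spread over 32 sites, of which 15 held at least 2 and none more than 5. The site near Aurkb held 4 and scored 3100 and 3177 for Gfi1 and 3100 in both Lsd1 lists, the highest Gfi1 replicate 2 score among all sites. A site on chromosome 3 near Gm22614 (rank 25) held 4, the site near Shf (rank 42) held 3, and the site near Dhx37 (rank 111) held 5. The site of 9130213A22Rik and Hes7 (rank 9) held 4 beside its coding starts.

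Only 41 sites (2.83%) had no GENCODE start within 1000 bp, and 7 of them held 23 tRNA genes. Their median distance to a TSS was 8698 bp, with a range from 1093 to 70810 bp, and their midpoints were intergenic in 24, intronic in 15 and exonic in 2. They were the widest type, with medians of 4755 bp and 4829 bp in Gfi1 replicates 1 and 2 and of 7403 bp and 6063 bp in Lsd1 replicates 1 and 2. The farthest was 70810 bp from Irf2bp2, at the 95.0 and 99.9 percentiles of the Gfi1 lists and the 99.7 and 99.2 percentiles of the Lsd1 lists. The next were 62656 bp from Gm29050, 42261 bp from Ccr1, 22282 bp from Nfatc2 and 21744 bp from Rps6ka1.

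Some loci carried several sites. Irf2bp2, a corepressor gene, was the closest gene of 4 sites, Bahcc1 of 3 and 19 other coding genes of 2, Gse1, Ubtf, Zmiz1 and Srebf1 among them. In all, 78 pairs of neighbouring sites were within 10000 bp of each other, and the closest pair, at Cntnap1, was 5 bp apart and was called as separate peaks in Gfi1 replicate 1. In 12 neighbouring pairs a single peak of another list covered both sites.

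The sites were not spread evenly over the chromosomes. Chromosome 11 had the most, 165 of its 340.0 upper Gfi1 replicate 1 peaks (48.5%), and chromosome 18 the lowest share among the autosomes, 19 of 76 (25%). The X chromosome had none, although 765 peaks of Gfi1 replicate 1 and 948 coding genes lie on it. Of these peaks 15 were in the upper 10%, and 0 of them met an upper 10% peak of Gfi1 replicate 2, 3 one of Lsd1 replicate 1 and 2 one of Lsd1 replicate 2.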

How the data were processed

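Peaks of chromatin immunoprecipitation sequencing were analysed from 4 libraries, Gfi1 and Lsd1 in each of 2 tumors. The authors aligned reads to mm10 with BWA 0.6.2, merged files with Picard, removed duplicates and called peaks per library with MACS at default settings against input. The deposited lists give each peak's position and a score, whose definition is not given in the sources used here. They hold no read counts, so the depth behind a peak is not known from them and no interval was computed.

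Peaks were ranked by score within each list, with tied scores given their mean rank, and the upper 10% of each list were intersected at a minimum overlap of 1 bp. Members were ranked by their mean percentile over the 4 lists, and where several upper peaks overlapped a member the highest score and the largest width were taken. TSSs came from GENCODE M21 (GRCm38, the build of mm10), and promoter and tRNA gene sequences from RefSeq GRCm38.p6. The site and its genes were joined by the closest TSS. Software versions were matplotlib 3.10.9, scipy 1.17.1, numpy 2.4.6 and Python 3.11.15, and the overlap and ranking steps were tested on simulated data.

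The sites and the gene lists were chosen with earlier results of these data known. Named sites were the 20 with the highest mean percentile, the 5 widest, the 5 farthest from a TSS, those next to the cutoffs, every member at a study or complex gene and up to 4 members of each other list. Of the 20, 1 is not reported here, nor are some other sites of the rule, and genes outside this rule were picked with their values known. The tRNA genes, the count of 2 or more CCAAT boxes, the comparison with each list as the reference and the Jun and Hnrnpl sequences were added after values were seen. No test was made, because the score chose the sites and each factor has 2 libraries. Alternatives were the upper 5% and 20%, peaks trimmed to their central 200 bp, each list as the reference, each library left out and other promoter definitions.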

Additional observations from a re-analysis of the deposited data

How the results depend on the processing

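The number of shared sites was 586 with the upper 5%, 3791 with the upper 20% and 363 with peaks trimmed to their central 200 bp. The share at a TSS was 95.83% with the upper 20% and 94.83% with protein-coding TSSs only, and ran from 95.47% to 97.32% when 1 library was left out. The median width was 4028 bp with the upper 5%, 2772 bp with the upper 20% and 2753 bp with trimmed peaks. It was 3573 bp, 4093.5 bp and 3871.5 bp with Gfi1 replicate 2, Lsd1 replicate 1 and Lsd1 replicate 2 as the reference, and 3205 to 3580.5 bp with 1 library left out. The high-CpG share was 88.43% with trimmed peaks, and 77.27% to 82.3% with 1 library left out. The divergent share was 29.46% with the upper 20%, 35.26% with trimmed peaks, 30.83% with starts up to 500 bp apart and 19.1% with both genes protein-coding, and 32.29% to 33.91% with 1 library left out. The share of coding genes with a site was 3.496% with the upper 5%, 20.02% with the upper 20%, 2.065% with trimmed peaks, and 8.638% to 10.78% with 1 library left out. No paired analysis was possible because no result comes from a test to which a block could be added. The factors share tumors, and within tumors 39 and 41 the share of cytosolic ribosomal protein genes with an upper 10% peak differed by -15.4 and -16.7 percentage points (Lsd1 minus Gfi1). For replication-dependent histone genes the differences were 16.4 and 2.98 percentage points. Other classes had the same order as the ribosomal protein genes. With 2 tumors, an SD rests on 2 values, and the lists give no depth.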
